A study of Mus musculus with 28 samples.

Results

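The genes described here are 39 mouse genes of glutathione metabolism and oxidant defence, chosen by their symbols with earlier results of these data known. They cover the glutathione transferases, the enzymes that make and recycle glutathione, the enzymes that remove peroxide and superoxide, and the Nfe2l2 pathway. All 39 were found among the 56748 genes of the count table. The low-count filter kept 38 of them, and Gstm3, with 77 counts over all libraries, was left untested.

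The study sequenced polyadenylated RNA of whole kidneys from mice with 1 of 3 forms of aquaporin-3 (Aqp3), a water and glycerol channel of the collecting duct. The channel was either wild type (WT) or carried a mutation that mimics its acetylated (Q) or its deacetylated (R) state, and the study asked what acetylation of the channel does to the kidney. Each genotype was sampled in both sexes, with 5 libraries per group except female R, which had 3. No mouse was treated, and all kidneys were taken between 2 and 5 h of zeitgeber time, that is, early in the light phase. The labels give no age, strain or litter and do not say whether each library came from a separate animal, so the p-values measure the spread between libraries, which may be technical.

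Glutathione is a tripeptide of glutamate, cysteine and glycine that reduces peroxides and is joined to reactive compounds so that they can be exported. Its synthesis runs through glutamate-cysteine ligase and glutathione synthetase, its oxidised form is reduced again by glutathione reductase, and outside the cell it is cut by gamma-glutamyl transferase, which lines the brush border of the proximal tubule. The transcription factor Nfe2l2 (NRF2), held back by Keap1, drives many of these genes through a DNA motif called the antioxidant response element. The kidney is a rich source of plasma glutathione peroxidase, the product of Gpx3.

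Library totals ran from 14825417 to 21403804 counts. A pair of libraries stood apart by their low share of mitochondrially encoded counts, 3.94% in female Q replicate 5 and 7.74% in male Q replicate 4, where the other 26 had 9.56 to 12.1%, and results that turn on them are also given without them. Female WT replicate 2 had 0.515 CPM (counts per 1e+06) of Xist, where the remaining 12 females had 214 to 435 CPM, and 0.468 CPM summed over 4 Y-linked genes, where males had 121 to 164 CPM. That library went against the usual female pattern without showing the male one, and was kept as labelled. The marker lists showed the nephron segments a kidney should hold, and 0 of the marker genes were at 0 in all libraries. The principal cell marker Avpr2 was barely detected, at 0 to 0.327 CPM, and was not tested. As sums over each list, proximal tubule markers ran from 15253 to 17885 CPM in males and 11861 to 16697 CPM in females, and thick ascending limb markers from 3098 to 5856 and from 5830 to 8078 CPM. The lowest female proximal tubule sum was that of female Q replicate 5, and the female WT and R lows were 13918 and 14608 CPM. The lowest male thick ascending limb sum was that of male Q replicate 4, and the male WT and R lows were 5000 and 4420 CPM.

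Measured as a share of all counts, the 39 genes together held 2.80 to 4.54% of a library, with a median of 3.18%. Most of that was Gpx3, which alone held 1.91 to 3.35% and ranked from 1 to 4 among all genes by counts. Per length of exon, Gpx3 stood at 12949 CPM per kilobase (kb). The next member, Gpx4, the peroxidase of lipid hydroperoxides, stood at 444 CPM per kb, followed by the gamma-glutamyl transferase Ggt1 at 344, the alpha-class transferase Gsta2 at 336 and catalase, Cat, at 329. At the other end, Gsta1 was measured at 0.417 CPM per kb and Gstm3 at 0.117. Levels per length are approximate, because reads that fit several near-identical genes were left uncounted. Of all 50-base stretches of Gsta1, 90.5% also occurred in other genes, mainly Gm3776, and 49.8% of those of Gsta2 did. The shares were 34.7% for Gpx4, 33.7% for Gstp1, which shares them with Gstp2, and 21% for Sod2, so the counts of these genes are uncertain.

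**Figure D1:**
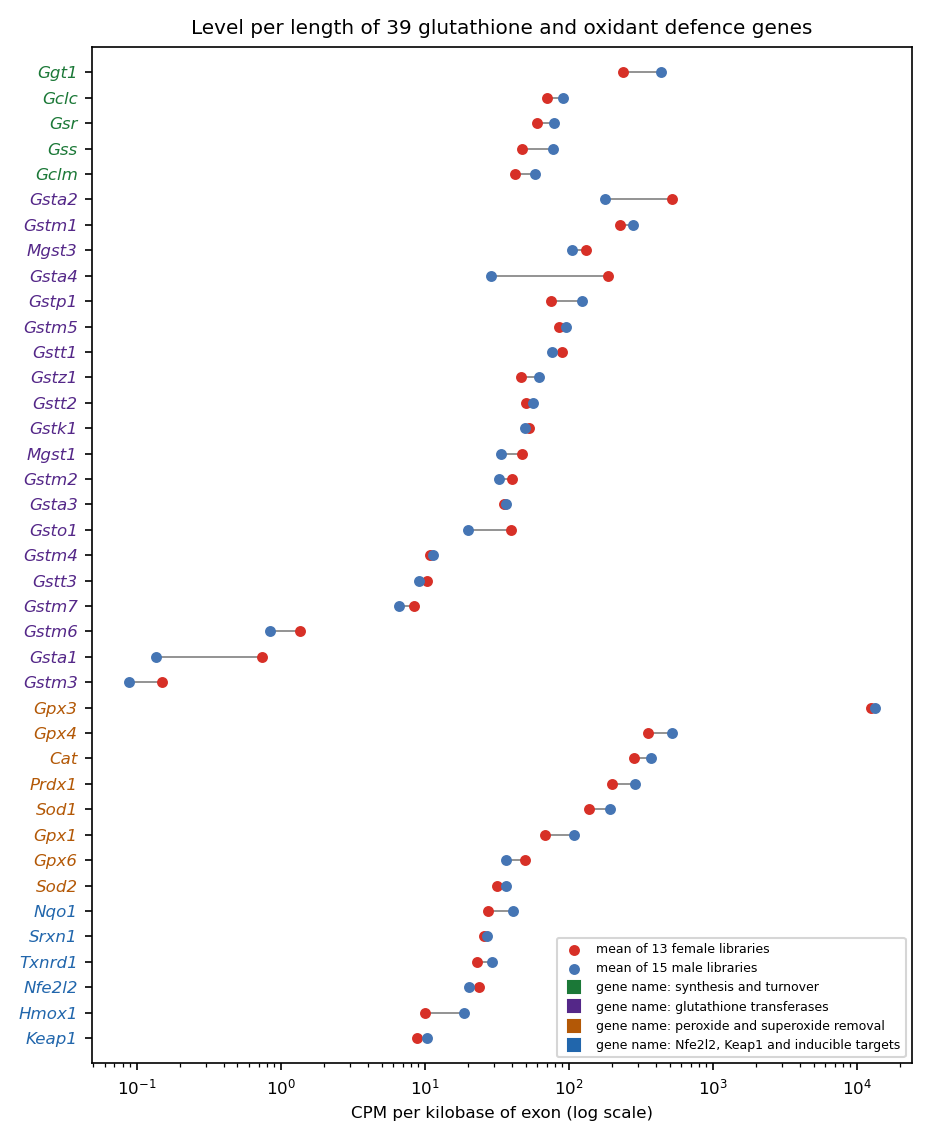
Mean level of each of the 39 genes in CPM per kilobase of exon (log axis), with red points for the mean of 13 female and blue points for the mean of 15 male libraries, gene names coloured by role. Gpx3 lies far to the right of the others at 12949 CPM per kb, and the widest gaps between the sexes are those of Gsta4, Gsta1 and Gsta2.

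To set the Nfe2l2 pathway beside its DNA motif, the core of the antioxidant response element, TGACNNNGC, was searched on both strands of the RefSeq promoter windows on build GRCm38.p6, from 250 bases before to 50 bases after each transcript start. Of the 34 members with a window, 11 (32.4%) held a match, against 14% of all 27025 genes with a window. A gene can have several windows, and by window the shares were 26% of 50 and 12.4% of 32851. Some members were chosen as genes driven by Nfe2l2, so these shares are a description and not a test. The 11 members with a match were Gclm, Ggt1, Prdx1, Txnrd1, Sod1, Nfe2l2, Gstm7, Mgst1, Gsta3, Gstm5 and Srxn1. Gclc, Gsr, Hmox1, Gsta4 and Gstt2 had no window in the table. The stretches printed here hold the match of 3 genes higher and 2 genes lower in males, so that both directions can be compared. They are read along the strand of the gene with the match in capitals, and a match on the opposite strand appears as its reverse complement. A match describes the letters and does not show that a factor binds there.
Prdx1, chr4:116685446-116685494, plus strand: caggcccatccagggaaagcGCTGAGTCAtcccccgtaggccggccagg
Gclm, chr3:122245403-122245451, plus strand: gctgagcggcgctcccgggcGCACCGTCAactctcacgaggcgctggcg
Txnrd1, chr10:82859094-82859142, plus strand: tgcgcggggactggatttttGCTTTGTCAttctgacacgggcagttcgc
Mgst1, chr6:138140451-138140499, plus strand: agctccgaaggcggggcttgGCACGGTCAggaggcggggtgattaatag
Nfe2l2, chr2:75704875-75704913, minus strand: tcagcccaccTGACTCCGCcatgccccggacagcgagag

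Between the sexes, most of the 38 tested genes differed, and they parted by role. Over the mean of the 3 genotypes, 17 were higher and 12 lower in males by the edgeR quasi-likelihood test at a Benjamini-Hochberg adjusted p under 0.05, or 76.3% of the members. The same call was made for 40.2% of all 17573 tested genes, with 18.9% higher and 21.3% lower in males. Among genes with a mean of at least 10 CPM it was made for 47.6%, with 28.1% higher and 19.5% lower in males. Of the 19 tested transferases 3 were higher, 10 lower and 6 not called, with a median log2 fold change, male minus female, of -0.21. Of the other 19 members 14 were higher, 2 lower and 3 not called, with a median of 0.38, while the median over all tested genes was -0.04. Without male Q replicate 4 and female Q replicate 5, 17 members were higher and 14 lower, and the share of all tested genes called was 45.9%.

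**Figure D2:**
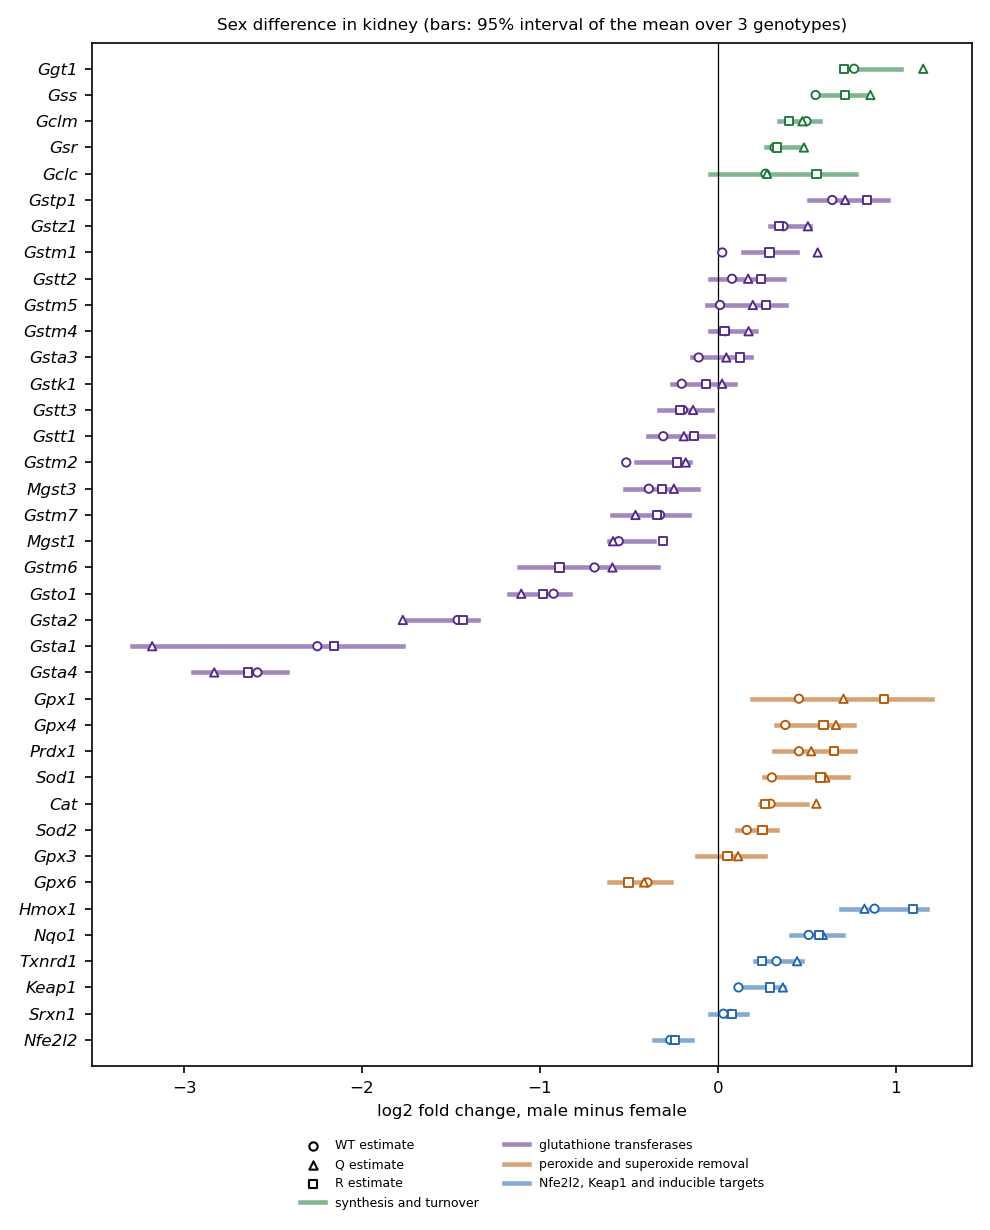
Log2 fold change, male minus female, of the 38 tested genes, ordered by role and size. Bars are 95% intervals of the mean over genotypes and open symbols the estimates in WT, Q and R. The synthesis genes, most peroxide and superoxide enzymes and most Nfe2l2 pathway genes lie to the right of 0, while the transferases reach from 0.73 down to -2.69.

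Each genotype has its own libraries, so the sex difference was also measured separately in each. In WT kidneys 10 members were higher and 8 lower in males, against 8.22% and 8.31% of all tested genes (16.5% in all). In Q kidneys 16 were higher and 7 lower, against 11.9% and 11.2% (23.1% in all), and in R kidneys 10 and 5, against 7.07% and 7.01% (14.1% in all). Of genes with a mean of at least 10 CPM, 12.1% were higher and 8.12% lower in WT males. In Q these shares were 17.8% and 11.2%, and in R 10.5% and 7.64%. Without male Q replicate 4 and female Q replicate 5 the counts were 14 higher and 10 lower in WT (24.9% of all tested genes called), 16 and 13 in Q (24.6%), and 17 and 6 in R (23.9%). Of the 19 tested transferases, 5 were lower in Q males with all libraries and 11 without that pair. In R, which had 3 female libraries, 9 members were called without female R replicate 1. In all 3 genotypes 13 members were called in a single direction, against 9.27% of all tested genes (5.23% higher and 4.04% lower). Among genes with a mean of at least 10 CPM the share was 12.4%. Of the 13, 8 were higher in males (Gclm, Gss, Gsr, Ggt1, Gstp1, Gstz1, Nqo1 and Hmox1) and 5 lower (Gsta1, Gsta2, Gsta4, Gsto1 and Gpx6). Without the pair the count was 19, with 14 higher and 5 lower (13.3% of all tested genes), and with limma voom and quality weights it was 24, with 14 higher and 10 lower (15.1%). Both held all 13. The estimates of 36 of the 38 members had the same sign in WT, Q and R, the exceptions being Gsta3 and Gstk1. For 7 members the CPM of all 15 male libraries lay apart from those of all 13 female libraries, against 5.14% of all tested genes: Gss, Ggt1, Gpx4 and Gstz1 above, and Gsta2, Gsta4 and Gsto1 below.

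Kidneys of the 2 sexes also differed in markers of nephron segments, in the same contrast by edgeR. All 5 thick ascending limb, 5 intercalated cell, 4 podocyte and 4 stroma markers were lower in males, while 4 of the 12 proximal tubule markers were higher and 4 lower. Other lists were less uniform. Lower in males were 2 of 3 distal convoluted tubule markers and 1 of 4 tested markers each of principal cells, endothelium and urothelium. Of the 4 tested adipocyte markers 0 were called. Summed CPM ran from 199 to 276 in males and 277 to 425 in females for intercalated cells, from 160 to 243 and 217 to 309 for podocytes, and from 122 to 158 and 122 to 186 for stroma. The intercalated cell and podocyte lows were those of male Q replicate 4 and female Q replicate 5. In WT and R, podocyte sums were 183 to 237 and 190 to 216 CPM in males. In females they were 263 to 308 and 260 to 283 CPM. Of the 5 tubule injury markers 1 was higher and 2 lower, and their sum was 433 to 684 CPM in males and 1086 to 1691 CPM in females. Nearly all of that sum was Spp1, at 421 to 667 and 1072 to 1671 CPM, whereas Havcr1 was higher in males (log2 fold change 1.37). Havcr1 was low throughout, at 0.747 to 5.14 CPM in males and 0.101 to 2.04 CPM in females, and its ranges overlapped. Of the 8 leukocyte markers 3 were lower (97.6 to 159 and 107.2 to 186 CPM), and of the 5 red cell markers 0 were called. In whole kidney, fewer cells of a type and less RNA per cell cannot be told apart, and the part of cell makeup in the differences below was not tested.

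Of the 5 genes of glutathione synthesis and turnover, 4 were higher in males and 1, Gclc, was not called. Ggt1, gamma-glutamyl transferase 1, stood at 1427, 1545, 1331, 1432 and 1264 CPM in WT males, at 1438, 1510, 1557, 2468 and 1518 CPM in Q males, and at 1525, 1297, 1388, 1406 and 1260 CPM in R males. The females stood at 789, 721, 1046, 740 and 817 CPM (WT), 810, 726, 772, 750 and 754 CPM (Q) and 772, 821 and 929 CPM (R). Every male library was above every female one, and the male Q library at the top was the one that stood apart. The log2 fold change was 0.88 (SE 0.0751, edgeR adjusted p = 4.91e-11), a 1.84-fold difference, and 0.83 without male Q replicate 4 and female Q replicate 5. Gss, glutathione synthetase, ran from 380 to 690 CPM in males (median 446) and from 245 to 318 CPM in females (median 276), also without overlap. Its log2 fold change was 0.71 (SE 0.0666, edgeR adjusted p = 3.96e-10).

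Gclm, the modifier subunit of glutamate-cysteine ligase, ran from 285 to 410 CPM in males (median 374) and from 235 to 285 CPM in females (median 265). Only the lowest male library, male Q replicate 4, reached down to the female range. The log2 fold change of Gclm was 0.46 (SE 0.0549, edgeR adjusted p = 5.06e-08). Gsr, glutathione reductase, ran from 184 to 260 CPM in males (median 210) and from 148 to 193 CPM in females (median 163). The ranges overlapped at the edges, and males were higher by 0.38 on the log2 scale (SE 0.0507, edgeR adjusted p = 3.95e-07).

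Gclc, the catalytic subunit of the same ligase, varied more between libraries than its partner. It stood at 554, 319, 342, 221 and 311 CPM in WT males, at 362, 325, 315, 147 and 359 CPM in Q males, and at 504, 306, 320, 541 and 233 CPM in R males. The females stood at 436, 186, 441, 187 and 201 CPM (WT), 421, 155, 290, 179 and 198 CPM (Q) and 255, 220 and 302 CPM (R). In each of the 5 groups of 5 libraries the highest was more than 2 times the lowest, in male Q through replicate 4 (315 to 362 CPM in the other 4), and males and females overlapped over most of their range. Its log2 fold change between the sexes was 0.37 (95% interval -0.04 to 0.78, edgeR adjusted p = 0.147). That interval holds the 0.46 of Gclm, and 1 of 36 alternative fits called Gclc higher in males. The pooled within-group SD of its log2 CPM was 0.507 without male Q replicate 4 and female Q replicate 5, against 0.0951 for Gclm, and was exceeded among the 39 only by those of the barely expressed Gstm3 and Gsta1.

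Among the transferases, which join glutathione to reactive compounds, the alpha class carried the largest sex differences of all members. Gsta4, known for its action on the lipid peroxidation product 4-hydroxynonenal, stood at 28.9, 57.8, 39.8, 34.5 and 34 CPM in WT males, at 25.3, 30.5, 30.5, 50.6 and 31.1 CPM in Q males, and at 35.3, 32.4, 48.5, 30.2 and 41.1 CPM in R males. The females stood at 204, 287, 204, 233 and 244 CPM (WT), 213, 326, 137, 215 and 304 CPM (Q) and 246, 219 and 236 CPM (R). The highest male library stayed below the lowest female library, female Q replicate 3. The log2 fold change was -2.69 (SE 0.126, edgeR adjusted p = 2.86e-16), 6.44-fold lower in males, and it was -2.59 in WT, -2.83 in Q and -2.64 in R.

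Gsta2, an abundant alpha-class transferase, ran from 139 to 314 CPM in males (median 190) and from 425 to 834 CPM in females (median 605). Its ranges did not overlap, and its log2 fold change was -1.56 (SE 0.0992, edgeR adjusted p = 6.07e-14). Gsta1 was lower as well, at -2.53 (SE 0.367, edgeR adjusted p = 1.6e-06), but on 0 to 8 counts per male and 5 to 24 per female library. Since nearly all of its sequence also lies in other genes, including Gsta2, its value is uncertain. Gsta3, the remaining alpha-class gene, was not called: it ran from 121 to 213 CPM in males and from 118 to 181 CPM in females, with a log2 fold change of 0.02 (95% interval -0.14 to 0.19). Gsta1, Gsta2 and Gsta4 lie on chromosome 9 and Gsta3 on chromosome 1.

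Gsto1, an omega-class enzyme that reduces rather than conjugates, ran from 28.2 to 58.4 CPM in males (median 39) and from 68.3 to 90.6 CPM in females (median 79.8). The sexes did not overlap, and males were 2.01-fold lower (SE of the log2 fold change 0.0823, edgeR adjusted p = 1.98e-11). The microsomal transferases Mgst1 and Mgst3 were lower in males by edgeR, with log2 fold changes of -0.48 (adjusted p = 1.82e-07) and -0.32 (adjusted p = 0.011). In CPM, Mgst1 ran from 55.8 to 88.7 in males and from 85.3 to 121 in females, and Mgst3 from 87.5 to 198 and from 122 to 178.

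The mu class, all 7 on chromosome 3, did not move together. Gstm1, the most abundant of them per length at 255 CPM per kb, was higher in males (log2 fold change 0.29, SE 0.073, edgeR adjusted p = 0.00171). Gstm2, Gstm6 and Gstm7 were lower, with log2 fold changes of -0.31, -0.72 and -0.38. Gstm4 and Gstm5 were not called, at 0.08 (95% interval -0.05 to 0.21) and 0.16 (-0.06 to 0.38). Gstm6 was low throughout, with 0.855 to 3.11 CPM in males and 1.96 to 3.76 in females.

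Gstp1, the pi-class enzyme, ran from 151 to 349 CPM in males (median 179) and from 90.7 to 189 CPM in females (median 111). Its ranges met only through female Q replicate 5, the highest female library and one of the pair that stood apart. The log2 fold change was 0.73 (SE 0.107, edgeR adjusted p = 1.99e-06). Gstz1, which also acts in tyrosine breakdown as maleylacetoacetate isomerase, ran from 276 to 401 CPM in males (median 312) and from 212 to 272 CPM in females (median 235). The sexes lay apart, and the log2 fold change was 0.41 (SE 0.0543, edgeR adjusted p = 3.78e-07).

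The theta-class genes Gstt1, Gstt2 and Gstt3, all on chromosome 10, and the mitochondrial and peroxisomal Gstk1 differed little. Gstt3 was called lower in males at -0.18 (SE 0.0724, edgeR adjusted p = 0.0446), and the call was lost in 23 of 36 alternative fits. Gstt1 lay at -0.21 (edgeR adjusted p = 0.0551), Gstk1 at -0.08 (0.479) and Gstt2 at 0.17 (0.192). Without male Q replicate 4 and female Q replicate 5, edgeR also called Gstt1, at -0.29 (adjusted p = 0.000134), and Gstk1, at -0.16 (adjusted p = 0.00737), so that 12 of the 19 tested transferases were lower in males.

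**Figure D3:**
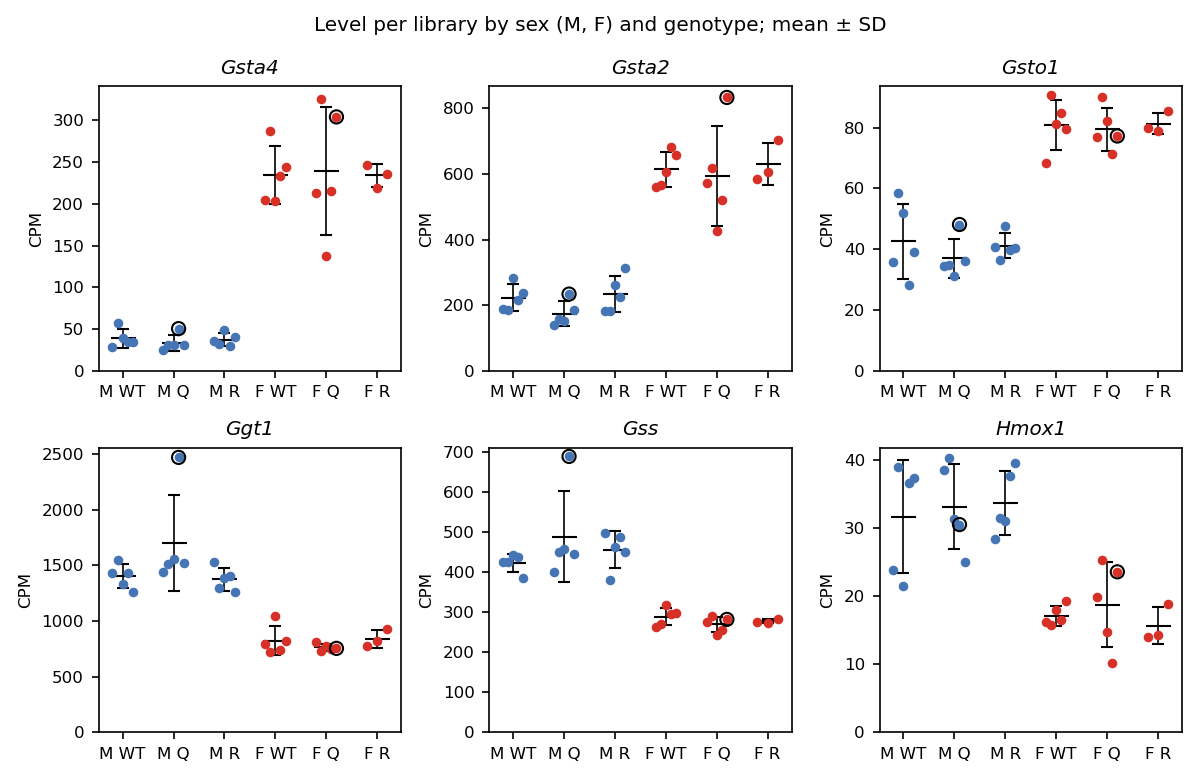
CPM in each library of 3 transferases lower in males (Gsta4, Gsta2, Gsto1) and of Ggt1, Gss and Hmox1, higher in males, with bars for mean ± SD of a group, males in blue and females in red, and circles around male Q replicate 4 and female Q replicate 5. In Gsta4, Gsta2, Gsto1, Ggt1 and Gss all male points lie to one side of all female points, and in Hmox1 they overlap in a few libraries.

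Of the 8 enzymes that remove peroxide and superoxide, 6 were higher and 1 lower in males. Gpx4 ran from 707 to 1804 CPM in males (median 806) and from 500 to 696 CPM in females (median 614), without overlap. Its log2 fold change was 0.55 (SE 0.105, edgeR adjusted p = 9.48e-05), and 0.45 without male Q replicate 4 and female Q replicate 5. Catalase, which breaks down hydrogen peroxide in peroxisomes, ran from 810 to 1092 CPM in males (median 974) and from 481 to 852 CPM in females (median 739). The ranges overlapped only through male Q replicate 4, the lowest male library, and the next lowest male stood at 863 CPM. The lowest female was female Q replicate 5. The log2 fold change was 0.37 (SE 0.0637, edgeR adjusted p = 2.03e-05).

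Sod1, the superoxide dismutase of the cytosol, and Prdx1, a cytosolic peroxiredoxin, were higher in males by edgeR, at 0.50 (SE 0.114, adjusted p = 0.000843) and 0.55 (SE 0.11, adjusted p = 0.000195). Without male Q replicate 4 and female Q replicate 5 they lay at 0.43 and 0.52. Sod2, the mitochondrial dismutase, was higher by a smaller step, at 0.22 (SE 0.0539, edgeR adjusted p = 0.00141). Gpx1, the glutathione peroxidase of the cytosol, lay at 0.70 with a wide interval (0.20 to 1.21, edgeR adjusted p = 0.0244). Its males ran from 89.3 to 494 CPM (median 120) and its females from 67.4 to 235 CPM (median 88.2), with the top of each range in the pair of libraries that stood apart. Without that pair the estimate was 0.60 (SE 0.124, edgeR adjusted p = 0.000389), and without female R replicate 1 the call was lost (edgeR adjusted p = 0.0522).

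Gpx6 went the other way, from 41.4 to 72 CPM in males (median 45.7) and from 56 to 76.7 CPM in females (median 68.7). The ranges of the sexes overlapped widely, and the log2 fold change was -0.44 (SE 0.0833, edgeR adjusted p = 8.81e-05). Gpx3, which held most of the counts, was not called: it ran from 19668 to 40907 CPM in males (median 22199) and from 19864 to 25226 CPM in females (median 23372). Its log2 fold change was 0.08 (95% interval -0.12 to 0.27), and 0.00 without male Q replicate 4 and female Q replicate 5.

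Of the 6 genes of the Nfe2l2 pathway, 4 were higher in males (Keap1, Nqo1, Hmox1 and Txnrd1), 1 was lower, Nfe2l2 itself, and 1, Srxn1, was not called. Nfe2l2 ran from 67.5 to 90.7 CPM in males (median 74.3) and from 76.9 to 108 CPM in females (median 90.2), overlapping in part. Its log2 fold change was -0.25 (SE 0.0518, edgeR adjusted p = 0.000234). In WT alone it was called at -0.27 (edgeR adjusted p = 0.0284), and the call was lost without female WT replicate 2, its highest library, at -0.20 (edgeR adjusted p = 0.14). Keap1, which holds Nfe2l2 back by leading it to degradation, ran from 41.8 to 58.9 CPM in males (median 48.2) and from 30.8 to 46.6 CPM in females (median 42.6). Keap1 was higher in males by 0.26 on the log2 scale (SE 0.0536, edgeR adjusted p = 0.000233).

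Of the targets, Hmox1, the inducible haem oxygenase, stood at 23.8, 39, 21.5, 36.5 and 37.3 CPM in WT males, at 38.5, 40.3, 31.3, 30.5 and 25 CPM in Q males, and at 28.4, 31.5, 31, 37.6 and 39.5 CPM in R males. The females stood at 16.2, 15.8, 17.9, 16.5 and 19.3 CPM (WT), 19.8, 25.3, 14.7, 10.2 and 23.6 CPM (Q) and 14, 14.2 and 18.8 CPM (R). Males were higher, and the ranges overlapped only where 2 female Q libraries reached the 2 lowest WT males and the lowest Q male. The log2 fold change was 0.93 (SE 0.117, edgeR adjusted p = 1.63e-07), the largest rise in males among the members.

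Nqo1, a quinone reductase, ran from 55 to 75.3 CPM in males (median 61.5) and from 32.6 to 60.1 CPM in females (median 42.1). The highest female was female WT replicate 2, the library low in Xist, and the other 12 females reached 48.7 CPM, below every male. The log2 fold change was 0.56 (SE 0.0711, edgeR adjusted p = 1.71e-07), and 0.61 without that library. Txnrd1, the cytosolic thioredoxin reductase, ran from 164 to 237 CPM in males (median 207) and from 126 to 192 CPM in females (median 164). It overlapped between the sexes and lay at 0.34 (SE 0.0629, edgeR adjusted p = 5.36e-05). Srxn1, sulfiredoxin, which restores overoxidised peroxiredoxins, ran from 65.6 to 82.9 CPM in males and from 59.2 to 78.1 CPM in females and was not called, at 0.06 (95% interval -0.04 to 0.17).

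Set beside the promoter motif above, 5 of the 11 members with a match were higher in males (Gclm, Ggt1, Prdx1, Txnrd1 and Sod1), 3 were lower (Nfe2l2, Gstm7 and Mgst1) and 3 were not called (Gsta3, Gstm5 and Srxn1). Of all 38 tested members 17 were higher, 12 lower and 9 not called. The 38 include those 11 and also members without a window. Whether the motif goes with the direction was not tested.

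A further list of 70 genes of the same pathways, from cysteine supply to thioredoxin, NADPH and haem handling, was measured in the same fit. That list was drawn up with earlier results of these data known, so its share called is a description. Of the 67 tested, 29 were higher and 16 lower in males, or 67.2%, by edgeR. The same call was made for 40.2% of all tested genes (18.9% higher and 21.3% lower). Among genes with a mean of at least 10 CPM it was made for 47.6% (28.1% higher and 19.5% lower). The largest falls in males were those of the carbonyl reductases Cbr1 (48 ± 7.53 CPM in 15 male and 459 ± 56.6 CPM in 13 female libraries, mean ± SD, log2 fold change -3.27) and Cbr3 (-1.84). They were followed by the exporter Abcc4 (-1.51), the thioredoxin inhibitor Txnip (-0.77), the omega-class transferase Gsto2 (-0.75) and the gamma-glutamyl transferase relative Ggt6 (-0.70).

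The largest rises were those of Selenop, the selenium carrier of plasma (2295 ± 290 against 842 ± 102 CPM, log2 fold change 1.43), the pi-class transferase Gstp2 (1.42) and Msrb1, a selenoprotein that reduces oxidised methionine (1.42). Malic enzyme, Me1, a source of NADPH (1.27), Cbs, the first enzyme from homocysteine towards cysteine (1.23), and the ferritin heavy chain gene Fth1 (0.66) came next. Male Q replicate 4 held the top male value of Msrb1, at 897 CPM, and of Fth1, at 11514 CPM.

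Between the Aqp3 genotypes, no member passed the test. Each of the 9 genotype contrasts and 3 interactions of sex with genotype called 0 members by edgeR, against 0% of all 17573 genes. DESeq2 called 0 members too, and at most 3 genes of the whole table in a contrast. At an unadjusted p under 0.05, edgeR had 4 members in Q minus WT and 0 in R minus WT in males, against 5.1% and 2.13% of all genes. In Q minus R in males there were 4 members, against 4.1%. In females the counts were 1 for Q minus WT (2.94% of all genes), 0 for R minus WT (1.92%) and 1 for Q minus R (3.03%). Over both sexes they were 1 (4.72%), 0 (1.34%) and 3 (3.93%). Of the further list 0 genes were called in any genotype contrast.

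The members with the smallest unadjusted p of a contrast follow, which need not be those with the largest estimates. Over both sexes, the estimates of the 38 members ran from -0.43 to 0.45 for Q minus WT. They ran from -0.09 to 0.40 for R minus WT and from -0.82 to 0.35 for Q minus R. Gsr stood at 211, 210, 187, 209 and 212 CPM in WT males, at 237, 208, 256, 260 and 235 CPM in Q males, and at 215, 184, 201, 203 and 202 CPM in R males. The female values were 193, 160, 171, 148 and 152 CPM (WT), 191, 156, 179, 163 and 167 CPM (Q) and 159, 155 and 165 CPM (R). Male Q lay mostly above male WT and male R but overlapped both, and the female groups overlapped. Over both sexes the log2 fold change was 0.13 for Q minus WT (95% interval 0.01 to 0.26, edgeR adjusted p = 0.92) and 0.17 for Q minus R (0.04 to 0.31, adjusted p = 0.986). These contrasts share the Q libraries.

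The mean of Gsta2 over 5 libraries each was 223 ± 40.5 CPM in WT males, 174 ± 37.9 CPM in Q males and 234 ± 55.6 CPM in R males (± SD). Females had 614 ± 54.3 CPM (WT, n = 5), 594 ± 152 CPM (Q, n = 5) and 631 ± 63.2 CPM (R, n = 3), so the groups of a sex overlapped. Over both sexes its log2 fold change was -0.20 for Q minus WT (95% interval -0.44 to 0.04) and -0.26 for Q minus R (-0.51 to 0.00), not called by edgeR (adjusted p = 0.92 and 0.986). Without male Q replicate 4 and female Q replicate 5 the estimates were -0.34 and -0.40, still not called (edgeR adjusted p = 0.98 and 0.94). Prdx1, at 0.22 for Q minus WT over both sexes (95% interval -0.04 to 0.48), was -0.02 without those libraries.

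Mgst1, at -0.17 for Q minus R over both sexes (95% interval -0.33 to -0.01, edgeR adjusted p = 0.986), had a mean of 61.9 ± 3.06 CPM over 5 Q males and 76.7 ± 10.5 CPM over 5 R males (± SD). For R minus WT over both sexes, Keap1 lay at -0.09 (-0.23 to 0.05), Gstm7 at 0.16 (-0.11 to 0.43) and Gstm6 at 0.28 (-0.20 to 0.77), with an edgeR adjusted p of 0.9999 each. Among the interactions, the smallest unadjusted p was that of Gstm1 in sex by Q minus WT (log2 difference 0.54, SE 0.169, edgeR adjusted p = 0.999). Its means over 5 libraries each were 368 ± 16 CPM in WT males and 453 ± 125 CPM in Q males, against 361 ± 46.8 CPM in WT females and 307 ± 17.7 CPM in Q females (± SD). Without male Q replicate 4 and female Q replicate 5 the interaction was 0.37.

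**Figure D4:**
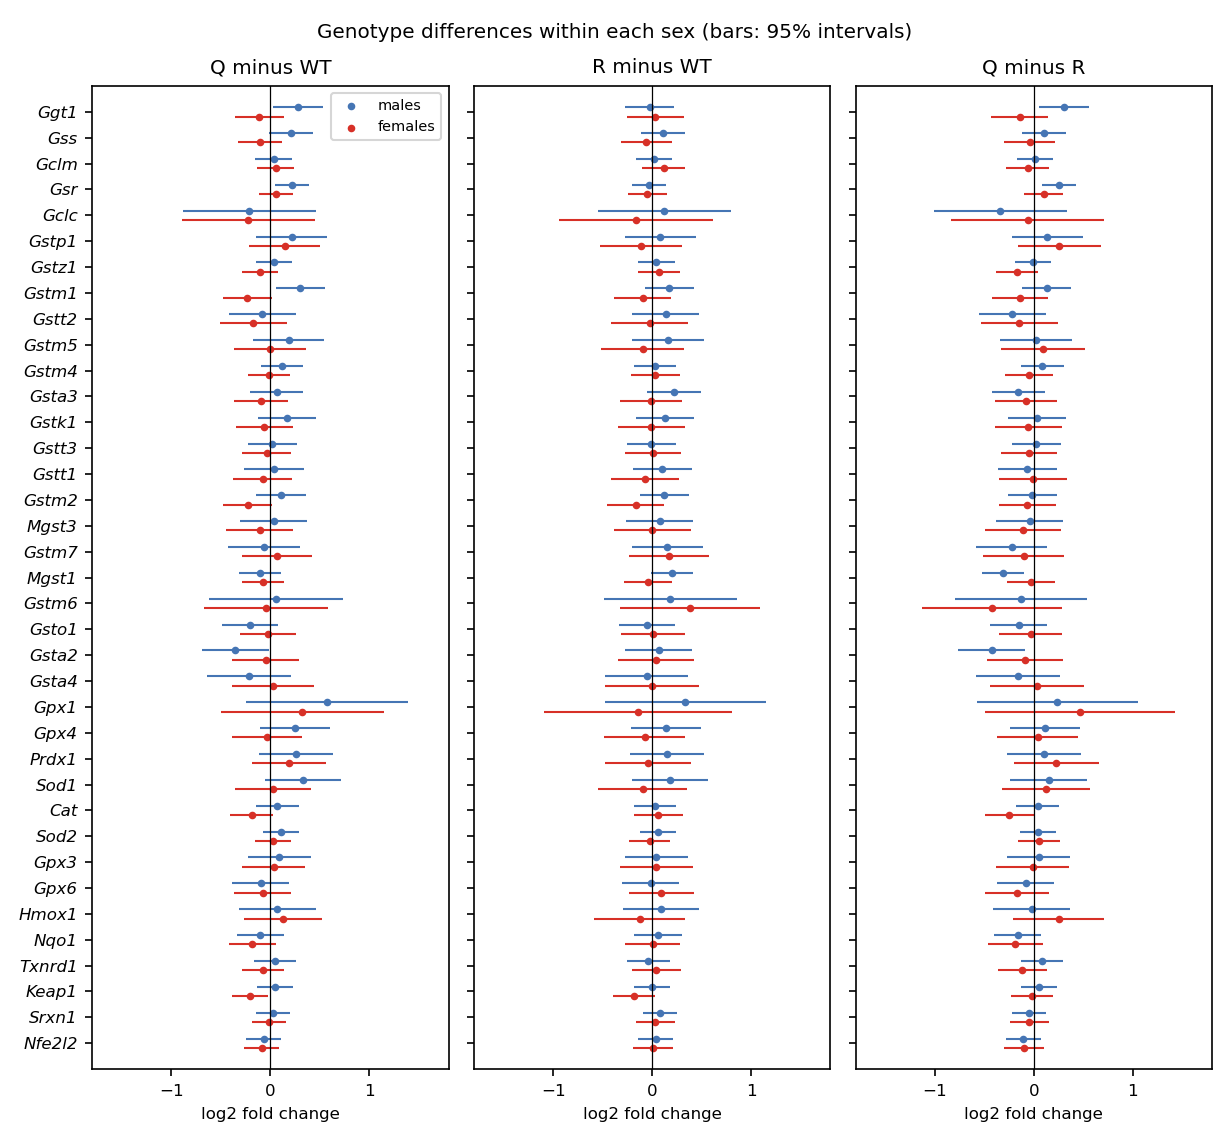
Log2 fold changes of 37 members between genotypes, in males (blue) and females (red), with 95% intervals; Gsta1, too low for a useful interval, is left out. The estimates crowd around 0 in all 3 panels, and 0 members passed the adjusted threshold.

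Male Q replicate 4 weighed on these contrasts. In it, 21 of 38 members were at least 1.5 times the median of the other 4 male Q libraries. Gpx1 was at 494 CPM against 89.3 to 122 in those 4, a ratio of 4.40, and Sod1, Gpx4, Prdx1 and Gpx3 had ratios of 2.48, 2.38, 2.12 and 1.96. Others were low in it: besides Gsta1, with 0 counts, these were above all Gclc with a ratio of 0.429, followed by Gclm with 0.723 and Txnrd1 with 0.731. Across the 38 members the ratio and exon length had a Spearman correlation of -0.31, as a description over genes measured in the same libraries. In female Q replicate 5, 6 of 38 members reached 1.5 times the median of the others, with Gpx1 at 2.98 and Prdx1 at 1.82.

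**Figure D5:**
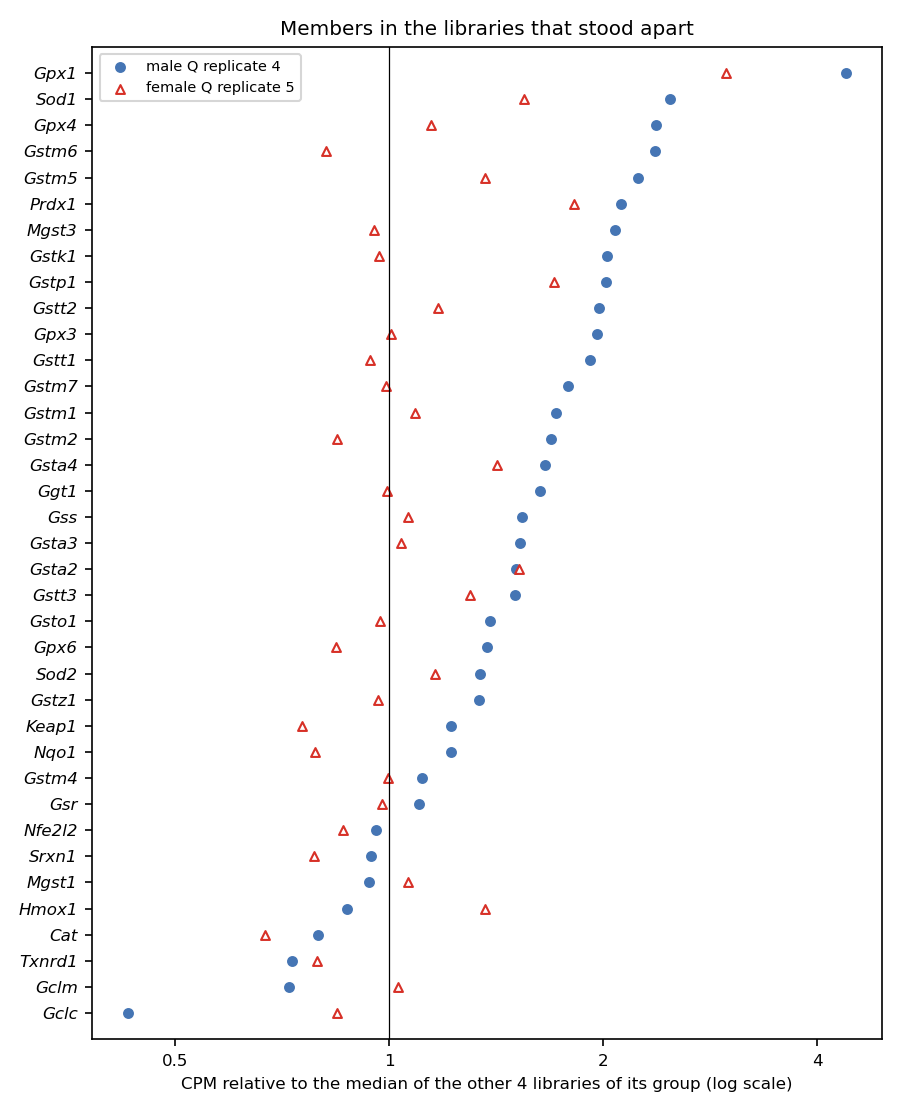
CPM of 37 members (all tested but Gsta1) in male Q replicate 4 (filled points) and female Q replicate 5 (open triangles), each relative to the median of the other 4 libraries of its group, on a log axis. Gpx1 is highest in both, at 4.40 and 2.98, and Gclc is lowest in male Q replicate 4, at 0.429.

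Without this pair, most estimates for Q lay below those for R in males. Of the 38 estimates of Q minus R in males, 32 were below 0, against 51.9% of all genes, and the median log2 fold change was -0.20 against -0.01 over all genes. With all libraries, 19 of 38 were above 0 and the median was 0.00. By edgeR 16 members then had an unadjusted p under 0.05, against 10.8% of all genes, and 0 were called, the smallest adjusted p being 0.177, that of Gsta2. Male R replicate 3 held the highest male R value of 20 of the 38 members. With it left out as well, 32 estimates stayed below 0, the median was -0.15, and 10 members had an unadjusted p under 0.05, against 6.73% of all genes. The fit without male R replicate 3 was added after seeing the data. Without the pair, Q minus WT in males, which shares the Q libraries, had 27 of 38 estimates below 0 with a median of -0.08. R minus WT in males, which shares the R libraries, had 31 of 38 above 0 with a median of 0.09. With male R replicate 3 also left out, these were 27 of 38 and 0.03. The 38 estimates of a contrast come from the same libraries and are not independent.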

How the data were processed

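The authors deposited unscaled counts of fragments per gene. Per the file headers, these had been made with featureCounts of Subread 2.0.1 on Ensembl release 107 of GRCm39, with no option for strand or for reads that fit several places, which that tool then leaves out. Trim Galore 0.6.7, SAMtools 1.6 and DESeq2 1.38.3 are named in the submitters' processing notes, and the aligner is not given in the sources used here. Sense and antisense reads can therefore not be told apart.

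The analysis used edgeR 4.0.16 (R 4.3.3). filterByExpr on the 6 groups kept 17573 genes with 99.91% of the counts. One robust quasi-likelihood model with a mean per group was fitted to all 28 libraries (22 residual degrees of freedom), scaled by TMM, and 16 contrasts were tested, with Benjamini-Hochberg adjustment over all tested genes and calls at 0.05. CPM are TMM-scaled, and each SE was taken from the log2 fold change and the F statistic of its test. The fit was tested on simulated data. Exon lengths and shared 50-base stretches came from GENCODE M21 on GRCm38, matched by gene identifier, and promoter windows from RefSeq. The members, the further list, the marker lists and the alternatives were chosen with earlier results of these data known. Named were members called in all 3 genotypes, the 3 smallest p of each genotype contrast over both sexes, the synthesis and Nfe2l2 core, and the 6 largest called further genes each way. Replicate numbers were checked for pairing, and alternatives used DESeq2 1.42.0 and limma 3.58.1.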

Additional observations from a re-analysis of the deposited data

Results flagged for a closer look

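In the 190 groups of 5 libraries, 1 per member and group, 35 held a highest or lowest library whose gap to the next one was an unusually large part of the group's range by Dixon's 95% critical value. Chance gives about 1 in 20 such groups. Male Q replicate 4 was that library in 25 of them. Of the transferases it was far above the others, in CPM, for Gsta3 at 213, Gsta4 at 50.6, Gstm1 at 675, Gstm2 at 82.6, Gstm5 at 229, Gstm6 at 3.11, Gstm7 at 15.2, Gstp1 at 349, Gstt1 at 190, Gstt3 at 48.2, Gstk1 at 129, Gstz1 at 401 and Mgst3 at 198. Of the other members it was far above the others, in CPM, for Gss at 690, Ggt1 at 2468, Gpx1 at 494, Gpx3 at 40907, Gpx4 at 1804, Gpx6 at 62.1, Keap1 at 58.9, Prdx1 at 1640, Sod1 at 1615 and Sod2 at 477. It was far below them for Gclc at 147 and Txnrd1 at 164 CPM.

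The other 152 groups gave 10 such libraries. Gstm1 was 396 CPM in male WT replicate 3 (358 to 363 in the others of its group) and 442 CPM in female WT replicate 3 (322 to 353). In male R replicate 3, Gstp1 was 229 CPM (172 to 185 in the others) and Gstk1 96.6 CPM (67.2 to 72.5). Mgst3 was 178 CPM in female Q replicate 2 (122 to 131). Gpx1 was 113 CPM in female WT replicate 2 (81.9 to 90.4) and 235 CPM in female Q replicate 5 (67.4 to 110). On the low side were Gstm4 at 15.8 CPM in female Q replicate 4 (18.5 to 19.4), Gsr at 187 CPM in male WT replicate 3 (209 to 212) and Srxn1 at 59.2 CPM in female Q replicate 5 (72.9 to 75.7).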

How the results depend on the processing

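Of the 29 members called between the sexes over the mean of genotypes, 27 were called in each of 36 alternative fits. Gpx1 was lost in 3 (edgeR adjusted p = 0.0572 with no filter) and Gstt3 in 23, and 0 of the 29 reversed. Leaving out 1 library at a time gave 27 to 31 called members over the mean of genotypes, 15 to 17 for WT (18 with all libraries), 18 to 25 for Q (23), 9 to 17 for R (15, and 9 without female R replicate 1) and 41 to 47 of the further genes (45). With only the groups compared, Q had 15. In R there were 29 with limma voom and quality weights, 23 without male Q replicate 4 and female Q replicate 5, and, in fits chosen after seeing the data, 25 with female WT replicate 2 also left out and 26 with male R replicate 3 instead. The share of all tested genes called in R rose without the pair as well, as given above. Called in all 3 genotypes were 9.27% of all tested genes in the main fit, 13.3% without the pair and 15.1% with voom. The cause of these shifts was not tested. Genotype contrasts and interactions called 0 members in each fit.

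Estimates near 0 changed sign. Gsta3 between the sexes (0.02) was -0.012 without male Q replicate 4 and female Q replicate 5, -0.030 with male R replicate 3 also left out, and -0.016 to 0.056 with 1 library left out. Gpx3 (0.08) was -0.011 with voom, -0.0108 without the pair and female WT replicate 2, -0.025 without the pair and male R replicate 3, and -0.00 to 0.108 with 1 library left out. Prdx1 in Q minus WT over both sexes (0.22) was -0.0222 with voom, -0.0193 without the pair, -0.031 with female WT replicate 2 and -0.0194 with male R replicate 3 also left out, and 0.077 to 0.267 with 1 library left out.

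Same-numbered libraries did not deviate together: of 65 pairs, 5 correlated over 0.1 (median 0.0057), and 5 of 28 libraries correlated best with their own number. With the replicate number as a block, 30 members were called over the mean of genotypes, 17 in WT, 22 in Q, 13 in R and 0 between genotypes. Depth limited Gstm3, left untested at 77 counts in all, and Gsta1, whose values rest on 212 counts.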
